A study of Mus musculus with 9 samples.

Results

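The genes described here handle retinol, or vitamin A, in the liver: Rbp4 and Stra6 carry it, Lrat stores it, Rdh10, Dhrs3, Aldh1a1 and Aldh1a2 govern its oxidation to retinoic acid, and Cyp26a1 and Cyp26b1 clear the acid. Members were all probes on the array that do not serve as controls and whose gene name is that of 1 of these 9 genes, which gave 10 of 56605 probes. The 9 genes have 1 probe each except Dhrs3, which has 2, and all 10 probes passed the filter on low signals. They are set against 23965 genes tested in all. Expression was measured in hepatic stellate cells of the mouse on 9 arrays in 3 groups of 3. The first group, labelled si-cav, had been cultured for 7 days on hard plates and then transfected overnight with 5 nM of siRNA targeting Cav1, which encodes the membrane coat protein caveolin-1. The second, labelled nc, had the same culture and 5 nM of a negative control siRNA. The third, labelled qhsc, was quiescent cells with no treatment, and the labels give no time of harvest for it. All cells came from C57BL/6 mice 10 weeks old, by collagenase perfusion of the liver, and were kept in medium with serum, per the protocols in the labels. Whether samples of the same group are separate animals or cultures is not stated in the labels, so p-values measure the spread between these samples, which may be technical.

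Quiescent stellate cells hold most of the body's vitamin A as retinyl esters in lipid droplets, and lose these droplets when they turn into myofibroblasts. Retinol enters the pathway bound to retinol-binding protein, is esterified for storage or oxidised to retinal and then, irreversibly, to retinoic acid. Retinoic acid acts on nuclear receptors that switch genes on, among them the genes of the enzymes that degrade it.

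Signals are given as log2 relative to the 75th percentile of the array, so that 0 is the signal of that percentile and values of different probes are not compared with each other. Probes well above background made up 60.1 to 64.0% on the Cav1-siRNA arrays, 61.9 to 69.0% on the control-siRNA arrays and 51.5 to 58.4% on the quiescent arrays. The arrays lay on 2 slides, and scans divided them in the same way. All Cav1-siRNA arrays were on slide 2 with control-siRNA arrays 2 and 3, while control-siRNA array 1 shared slide 1 with all quiescent arrays. The siRNA target Cav1 measured -2.88, -2.89 and -3.07 in Cav1-siRNA cells, against -1.34, -1.12 and -1.09 in control-siRNA cells, 3.40-fold lower with no overlap (adjusted p = 0.145). Cav1 stayed above background on all 3 Cav1-siRNA arrays, at 5.69-fold its mean in quiescent cells, where 1 of 3 arrays had it above background. The arrays do not measure caveolin-1 protein. The 9 markers of activated stellate cells were all higher in both cultured groups than in quiescent cells. Of all genes 40.4% were higher for Cav1 siRNA and 42.1% for control siRNA, at an adjusted p under 0.05 (limma).

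Markers of other liver cells moved with the contrast between cultured and quiescent cells, and their part in the results below was not tested. The summed signal of 12 hepatocyte markers, in units of the 75th percentile, was 0.221 to 0.261 in Cav1-siRNA cells, 0.274 to 0.316 in control-siRNA cells and 1150 to 1395 in quiescent cells. Of these 12 markers, 7 were not above background on any Cav1-siRNA array (Alb, Apoa1, Ttr, Fgb, Pck1, Cps1 and Hnf4a) and 5 on no control-siRNA array (Apoa1, Ttr, Pck1, Cps1 and Hnf4a). The sum of 8 sinusoidal endothelial markers was 0.553 to 0.586 in Cav1-siRNA cells, 0.535 to 0.629 in control-siRNA cells and 303.5 to 513.4 in quiescent cells, and Cdh5 was above background on no cultured array. The sum of 8 Kupffer cell and macrophage markers was 26.6 to 28.5 in Cav1-siRNA cells, 29.6 to 32.3 in control-siRNA cells and 279 to 448.3 in quiescent cells, and Clec4f, Vsig4 and Timd4 were above background on no cultured array. All 12, 8 and 8 markers were lower in control-siRNA than in quiescent cells at an adjusted p under 0.05 (limma), beside 26% of all genes. Alb, Apob, Fgb and Clec4g passed the filter on low signals through the quiescent arrays alone. So did the markers that were above background on no control-siRNA array, and these counts are therefore descriptions. Of 8 measured markers of quiescent stellate cells 5 were lower in control-siRNA cells, beside the same 26% of all genes. The sum of the 8 was 32.2 to 35.3 in Cav1-siRNA cells, 36.6 to 36.9 in control-siRNA cells and 36.1 to 89.9 in quiescent cells. Ecm1 was the largest term of this sum on every array, and it differed by only 0.07 on the log2 scale. The 5 lower markers were Colec10 (-8.21), Ngfr (-3.82), Hgf (-1.65), Colec11 (-1.43) and Nes (-1.43), so the sum hides their falls. Des and Gfap, which also define stellate cells, did not pass the filter on low signals. In such bulk samples fewer cells of a type and less RNA per cell cannot be told apart.

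The promoters of the pair of clearance genes are shown because retinoic acid receptors act through such regions on genes of this kind. Each runs from 250 bases before to 50 bases after the start of the gene, is taken from RefSeq (GRCm38.p6) and is written 5′ to 3′ on the strand of the gene, with chr19:37697558-37697857 on the plus strand for Cyp26a1 and chr6:84593761-84594060 on the minus strand for Cyp26b1. Capitals mark 2 copies of a receptor hexamer, which read AGTTCA on the opposite strand with 5 bases between them.
Cyp26a1 promoter: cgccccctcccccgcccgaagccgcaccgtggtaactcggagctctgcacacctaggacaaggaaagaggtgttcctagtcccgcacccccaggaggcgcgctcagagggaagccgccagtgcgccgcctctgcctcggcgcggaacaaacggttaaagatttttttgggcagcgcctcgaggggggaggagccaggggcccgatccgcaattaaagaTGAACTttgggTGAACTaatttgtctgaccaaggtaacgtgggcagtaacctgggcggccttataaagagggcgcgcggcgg
Cyp26b1 promoter: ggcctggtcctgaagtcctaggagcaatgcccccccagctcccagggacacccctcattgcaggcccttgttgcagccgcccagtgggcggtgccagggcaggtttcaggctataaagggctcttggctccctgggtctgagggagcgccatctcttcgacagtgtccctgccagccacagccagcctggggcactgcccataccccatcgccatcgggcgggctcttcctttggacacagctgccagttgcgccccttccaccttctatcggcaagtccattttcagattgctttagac
The hexamers searched were AGGTCA and its variant AGTTCA, together with GGGTCA and its variant GGTTCA, as direct repeats with 2 or 5 bases between them on both strands. The Cyp26a1 window held the repeat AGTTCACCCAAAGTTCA, from 32 to 16 bases before the start of the gene. Repeats with 5 bases between occurred in 32 of 32851 promoters (0.0974%) and repeats with 2 bases between in 88 (0.268%), while any single hexamer occurred in 43.7%. RefSeq promoters were found for 8 of the 9 genes, 15 windows in all, and Rdh10 was not among them. No other window of these genes held such a repeat. A match is a description of letters and not of binding.

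The array reads Cyp26a1 and Stra6 through the 2 probes below, shown because the Cyp26a1 probe was at background in culture and the Stra6 difference changed with the slide. The Cyp26a1 probe lies at chr19:37775566-37775625 and the Stra6 probe within chr9:58000379-58000990, both on the plus strand of mm9 per the file headers. The Stra6 probe is 60 bases long over a genomic span of 612 bases, so it joins separate stretches of the genome. Coordinates of the other probes, also on mm9, stand beside their genes below, and their place in exons or introns was not analysed here.
Cyp26a1 probe: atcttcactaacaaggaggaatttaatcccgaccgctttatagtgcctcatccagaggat
Stra6 probe: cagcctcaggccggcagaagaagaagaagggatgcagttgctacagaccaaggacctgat

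In samples of cells activated in culture with control siRNA, 7 of the 9 retinol genes had a lower signal than in quiescent samples. They were those for carriage (Rbp4), storage (Lrat), reduction of retinal (Dhrs3), synthesis of retinoic acid (Aldh1a1 and Aldh1a2) and its clearance (Cyp26a1 and Cyp26b1). None of the 9 was called higher, and Stra6 and Rdh10 were not called. Calls were made at an adjusted p under 0.05, with limma and Benjamini-Hochberg adjustment over all 23965 genes. Of all genes 68.1% were called in this comparison, 42.1% higher and 26% lower. Of the 7 called lower, Rbp4, Lrat, Aldh1a2 and Cyp26a1 passed the filter on low signals through the quiescent arrays alone, where they are high, so the count of 7 is a description and is not read against the share of all genes. All 7 were lower by at least 2-fold, or 5 after normexp with quantile normalization, where Aldh1a2 (-0.95) and Cyp26a1 (-0.84) were under 2-fold. Of all genes 19% were lower by at least 2-fold, and 47.9% differed that much in either direction. The median difference of the 9 genes was -3.29 on the log2 scale, and 0.32 over all genes. It includes the genes that passed through the quiescent arrays alone, so it too is a description. Groups did not overlap for 69.8% of all genes.

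**Figure D1:**
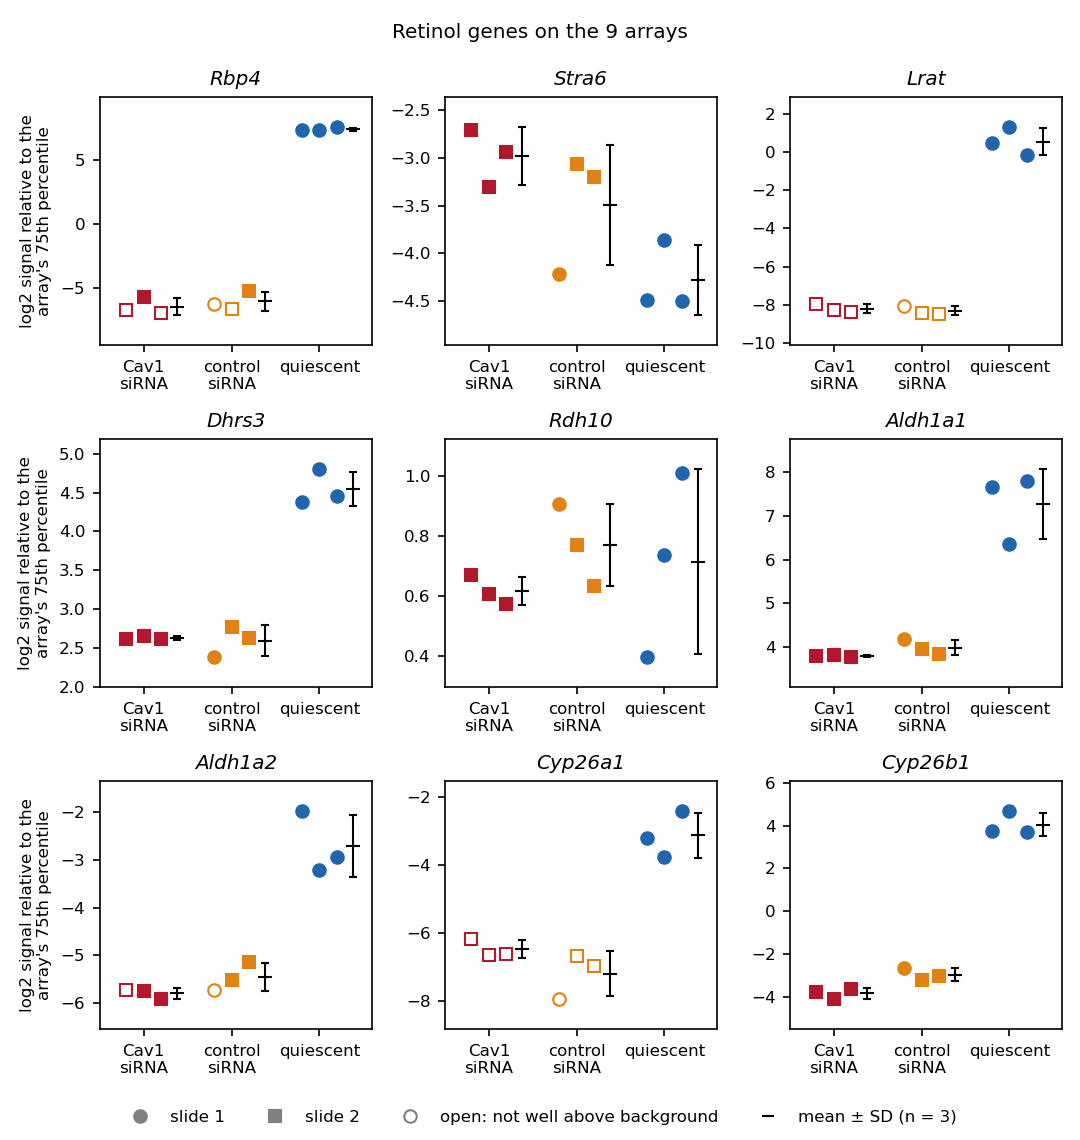
Log2 signal of each retinol gene relative to the array's 75th percentile (y axis, own scale in each panel) for the 3 Cav1-siRNA, 3 control-siRNA and 3 quiescent arrays; circles are slide 1, squares slide 2, open symbols are not well above background, and bars are mean ± SD. The 7 genes other than Stra6 and Rdh10 are lower on every cultured array than on any quiescent array, while Stra6 on control-siRNA array 1 (-4.22), on slide 1, lies among the quiescent arrays.

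Rbp4 (probe at chr19:38191129-38191188), the plasma carrier of retinol that hepatocytes release in the liver, measured -6.74, -5.75 and -7.01 in Cav1-siRNA cells, -6.27, -6.68 and -5.24 in control-siRNA cells and 7.33, 7.28 and 7.51 in quiescent cells. It was bright on every quiescent array and above background on only 1 array of each cultured group. The difference, control siRNA minus quiescent, was -13.43 ± 0.41 (SE, n = 3 each, adjusted p = 1.09e-08). It was -10.12 after normexp background correction. The hepatocyte markers given above were high on the same arrays.

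Stra6, the membrane receptor that takes up retinol from its plasma carrier, measured -2.70, -3.30 and -2.94 in Cav1-siRNA cells, -4.22, -3.07 and -3.20 in control-siRNA cells and -4.49, -3.86 and -4.51 in quiescent cells. Control-siRNA arrays 2 and 3 lay above all quiescent arrays, and control-siRNA array 1 lay among them, so the groups overlapped. The difference between control-siRNA and quiescent cells was 0.79 (95% confidence interval 0.05 to 1.54, adjusted p = 0.0571). Without control-siRNA array 1 it was 1.15 (adjusted p = 0.00544), and leaving out quiescent array 2 gave 1.00 (adjusted p = 0.0316). Within slide 1, which holds array 1 and all quiescent arrays, it was 0.07 (adjusted p = 0.926), and with the slide as a block it was 0.07 (adjusted p = 0.876). The adjusted p was under 0.05 in 6 of 21 alternatives.

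Lrat (probe at chr3:82696805-82696864), the enzyme that makes the stored retinyl esters, measured -7.95, -8.28 and -8.38 in Cav1-siRNA cells, -8.04, -8.44 and -8.47 in control-siRNA cells and 0.48, 1.30 and -0.13 in quiescent cells. It was not above background on any cultured array, while every quiescent array measured it. For such a probe the difference is given as a bound, the bright group's mean over the higher of the probe's own signal and the lowest signal well above background on each dim array. That lowest signal is not a strict floor. On control-siRNA array 1 Aldh1a2 was not well above background at -5.73, while the lowest signal that was so measured -5.93. Each bound given here is therefore approximate. On that basis Lrat was at least 103.9-fold lower in control-siRNA cells (measured means -8.32 and 0.55, adjusted p = 3.2e-08). After normexp the measured difference was -4.07 on the log2 scale.

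Rdh10 (probe at chr1:16122506-16122565), the dehydrogenase that oxidises retinol to retinal, measured 0.67, 0.61 and 0.57 in Cav1-siRNA cells, 0.91, 0.77 and 0.63 in control-siRNA cells and 0.40, 0.74 and 1.01 in quiescent cells. The quiescent arrays spanned both cultured groups. The difference between control-siRNA and quiescent cells was 0.06, with a 95% confidence interval of -0.34 to 0.45 that holds no 2-fold change in either direction (adjusted p = 0.79).

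Dhrs3 (brighter probe at chr4:144517485-144517544), a reductase that turns retinal back into retinol, measured 2.61, 2.66 and 2.61 in Cav1-siRNA cells, 2.38, 2.77 and 2.62 in control-siRNA cells and 4.38, 4.80 and 4.46 in quiescent cells on its brighter probe. All cultured arrays lay below all quiescent arrays, 3.88-fold lower in control-siRNA cells (log2 difference -1.96 ± 0.16, SE, n = 3 each, adjusted p = 5.7e-06). The second probe of Dhrs3, 34.2 kb away on chromosome 4, measured -2.80, -2.41 and -2.72 in Cav1-siRNA cells, -2.33, -2.65 and -1.99 in control-siRNA cells and -0.71, -0.04 and -0.60 in quiescent cells. The difference there was -1.87 (adjusted p = 9.24e-05 over all 36817 probes, of which 67.9% were called), so the 2 probes gave the same direction and a like size.

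Aldh1a1 (probe at chr19:20717764-20717823), which oxidises retinal to retinoic acid and is also abundant in hepatocytes, measured 3.79, 3.82 and 3.76 in Cav1-siRNA cells, 4.18, 3.95 and 3.83 in control-siRNA cells and 7.66, 6.35 and 7.80 in quiescent cells. It stayed well above background in culture, at 9.75-fold below the quiescent level in control-siRNA cells (log2 difference -3.29 ± 0.34, SE, n = 3 each, adjusted p = 2.52e-05). Its close copy Aldh1a7 differed by -4.02 (adjusted p = 6.17e-08), and whether a probe of the pair also binds the other transcript was not tested.

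Aldh1a2 (probe at chr9:71143931-71143990), the main retinal dehydrogenase of embryonic tissue, measured -5.73, -5.74 and -5.93 in Cav1-siRNA cells, -5.73, -5.51 and -5.14 in control-siRNA cells and -1.98, -3.22 and -2.95 in quiescent cells. All quiescent arrays lay above all cultured arrays, on which it was close to background and above it on 2 of 3 in each group. It was 6.70-fold lower in control-siRNA cells (log2 difference -2.75, adjusted p = 4.09e-05). Normexp correction made this difference -1.36 with the 75th percentile and -0.95 with quantile normalization, still called.

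Cyp26a1, the cytochrome P450 that degrades retinoic acid and is inducible by it in liver, measured -6.16, -6.63 and -6.60 in Cav1-siRNA cells, -7.94, -6.66 and -6.96 in control-siRNA cells and -3.20, -3.75 and -2.43 in quiescent cells. It was above background on all quiescent arrays and on no cultured array. The probe printed above was at least 8.12-fold lower in control-siRNA cells (measured means -7.18 and -3.13, adjusted p = 1.84e-05). After normexp the difference was -1.31, and with quantile normalization -0.84, still called.

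Cyp26b1 (probe at chr6:84521952-84522011), the other retinoic acid hydroxylase, measured -3.73, -4.09 and -3.62 in Cav1-siRNA cells, -2.63, -3.21 and -2.98 in control-siRNA cells and 3.74, 4.66 and 3.72 in quiescent cells. It was above background on every array of all groups, so its fold is measured on both sides. It was 126.4-fold lower in control-siRNA cells (log2 difference -6.98 ± 0.28, SE, n = 3 each, adjusted p = 5.1e-08), or -6.17 on the log2 scale after normexp with the 75th percentile.

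Within slide 1, where 1 control-siRNA array is set against the 3 quiescent arrays, the same 7 genes had a lower signal. A single array has no spread of its own, so only differences are given here. They were -13.64 for Rbp4, -8.60 for Lrat, -2.17 for Dhrs3 and -3.09 for Aldh1a1. For Aldh1a2 the difference was -3.02, for Cyp26a1 -4.81 and for Cyp26b1 -6.67. On that control-siRNA array Rbp4, Lrat, Aldh1a2 and Cyp26a1 were not above background. These genes passed the filter on low signals through the quiescent arrays alone, so this too is a description.

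**Figure D2:**
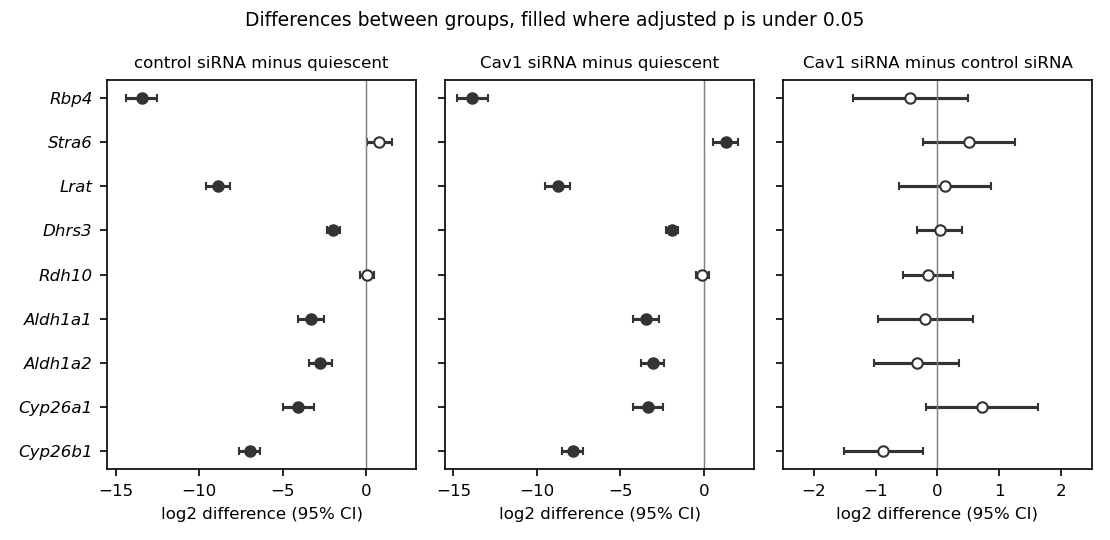
Log2 difference with its 95% confidence interval for each retinol gene (rows) in the 3 comparisons (panels), filled where the adjusted p was under 0.05. Lrat and Cyp26a1, above background on no cultured array, are drawn at fitted values. Against quiescent cells these values are no bounds, and between the siRNAs they are no measured differences. In the panels against quiescent cells the same 7 genes are filled left of 0, Stra6 lies right of 0 and is filled for Cav1 siRNA, and Rdh10 lies near 0 and is not filled, and in the panel of Cav1 siRNA against control siRNA, drawn on a wider scale, no gene is filled.

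The Cav1 siRNA was compared with the control siRNA to see whether activated cells with less Cav1 RNA differ in these genes. No retinol gene was called by limma: 0 of 9, beside 0% of the 23965 genes, with 1 of 9 at an unadjusted p under 0.05 beside 1189 of all genes. The gene with that p was Cyp26b1, lower on all 3 Cav1-siRNA arrays than on any control-siRNA array, by 1.83-fold (log2 difference -0.87 ± 0.28, SE, n = 3 each, 95% confidence interval -1.51 to -0.24, unadjusted p = 0.0126, adjusted p = 0.77). Within slide 2, and so without control-siRNA array 1, the difference was -0.72 (adjusted p = 0.245). Across the 21 alternatives it lay between -1.01 and -0.35, with adjusted p between 0.0543 and 1.

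The groups also did not overlap for Aldh1a1, lower by 0.20 on the log2 scale (95% confidence interval -0.96 to 0.57), and for Cyp26a1. Cyp26a1 and Lrat were below background on every array of both groups and get no difference here. These 3 genes of 9 stand beside 22.6% of all genes without overlap. The remaining differences, Cav1 siRNA minus control siRNA, were -0.44 for Rbp4, which was above background on 1 of 3 arrays in each group, 0.51 for Stra6, -0.15 for Rdh10, 0.03 for Dhrs3 and -0.34 for Aldh1a2. The interval for Stra6 ran from -0.23 to 1.26 and that for Rbp4 from -1.36 to 0.49, so these intervals hold changes of over 2-fold. The interval for Rdh10, -0.55 to 0.24, did not reach 2-fold. All these intervals use a spread pooled over the 9 arrays, so they also carry that of the quiescent arrays. For Aldh1a1 the SD was 0.03 in Cav1-siRNA, 0.18 in control-siRNA and 0.80 in quiescent cells. With limma on only the 2 siRNA groups no retinol gene was called either, with the lowest adjusted p, 0.171, for Cyp26b1. The median of the 9 genes was -0.15, beside -0.04 over all genes.

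Against quiescent cells, the Cav1-siRNA group had the same 7 genes called lower and Stra6 called higher. Rbp4, Lrat, Aldh1a2 and Cyp26a1 passed the filter on low signals through the quiescent arrays alone. The count of 7 is therefore again a description and is not read against the share of all genes. Of all genes 67.6% were called, 40.4% higher and 27.2% lower, 47.6% differed by at least 2-fold in either direction and 71.7% did not overlap between groups. The comparison shares its quiescent arrays with that of control siRNA, so the 2 sets of differences are given side by side as values. For Cav1 siRNA they were -13.87 for Rbp4, -1.92 for Dhrs3, -3.48 for Aldh1a1, -3.08 for Aldh1a2 and -7.86 for Cyp26b1. For control siRNA they were -13.43 for Rbp4, -1.96 for Dhrs3, -3.29 for Aldh1a1, -2.75 for Aldh1a2 and -6.98 for Cyp26b1. Lrat was at least 94.2-fold lower and Cyp26a1 at least 7.36-fold lower in Cav1-siRNA cells.

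Stra6 was 2.47-fold higher in Cav1-siRNA than in quiescent cells (log2 difference 1.30, adjusted p = 0.00641), and the groups did not overlap. It was above background on every quiescent array but dim there. On quiescent array 2 it measured -3.86, where the lowest signal well above background was -4.08. No slide holds both groups. With the slide as a block, which leans on the control-siRNA arrays of both slides, the difference was 0.22 (adjusted p = 0.716), and after normexp with the 75th percentile it was 0.14 (adjusted p = 0.4). The call held in the other 18 of 20 alternatives, with adjusted p down to 0.000798. The rise and the slide cannot be told apart by a direct comparison here.

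**Figure D3:**
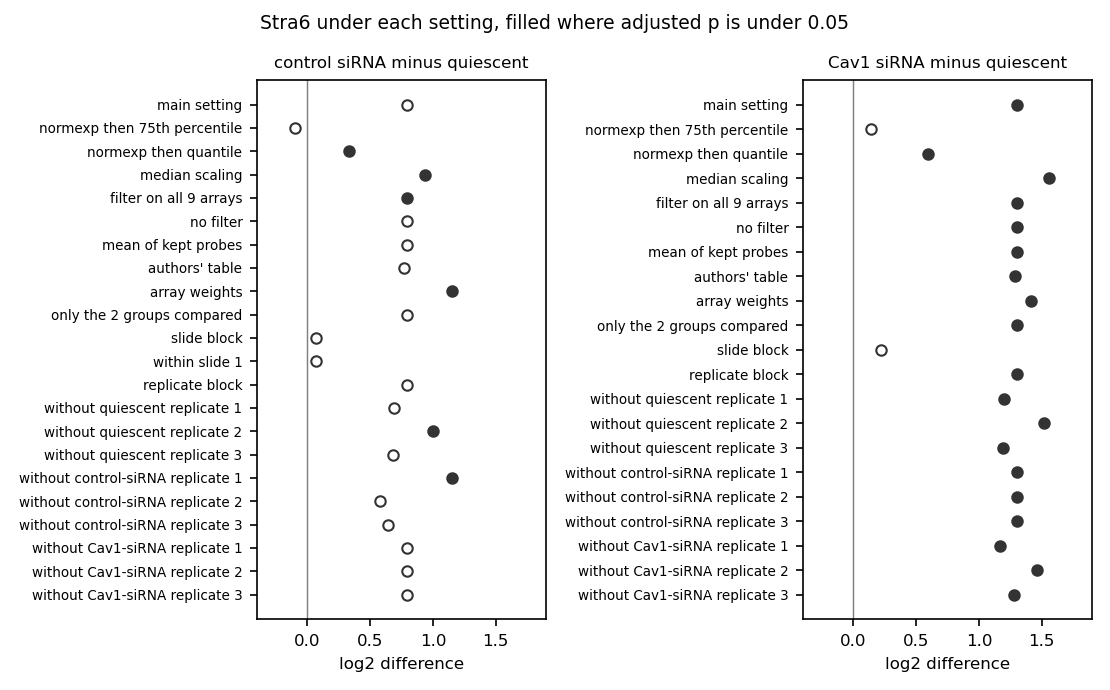
Log2 difference of Stra6 from quiescent cells (x axis) under the main setting and each alternative (rows), for control siRNA and for Cav1 siRNA, filled where the adjusted p was under 0.05. Control siRNA ranges from -0.10 to 1.15 and Cav1 siRNA from 0.14 to 1.56, with the lowest values after normexp with the 75th percentile and with the slide as a block.

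The quiescent arrays differed among themselves. Quiescent array 2 was the highest of the 3 for Lrat, Cyp26b1, Stra6 and both Dhrs3 probes, the lowest for Aldh1a1, Aldh1a2, Cyp26a1 and Rbp4, and in the middle for Rdh10. On that array the summed markers of quiescent stellate cells were 89.9, against 52.7 on array 1 and 36.1 on array 3, and those of sinusoidal endothelial cells were 513.4, against 303.5 and 313.8. Hepatocyte markers were 1150 there, against 1395 and 1383, and Kupffer cell markers were 279, against 448.3 and 333.7. These are values of single arrays with no test, and their part in the differences above was not tested.

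The other genes of retinol metabolism were mostly lower as well. Of 35 further enzymes and carriers 27 were measured, and 20 of these were called lower in control-siRNA than in quiescent cells, 2 higher and 5 not called, with a median of -2.33 beside 0.32 over all genes, of which 26% were called lower and 42.1% higher. Of the 20, 7 (Ttr, Rdh7, Rdh16, Adh1, Adh4, Bco1 and Ces1d) were above background on no control-siRNA array and passed the filter through the quiescent arrays alone. Aldh1a3 also passed through the quiescent arrays alone, so this count and this median too are descriptions. Bco2, a carotenoid-cleaving enzyme, differed by -5.58 (adjusted p = 5.0e-07) and Aldh8a1, a retinal dehydrogenase of liver and kidney, by -5.07 (adjusted p = 3.7e-07).

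Among genes that control-siRNA cells held only below background, the alcohol dehydrogenase genes Adh1 and Adh4 were at least 13080-fold and at least 3144-fold lower. Ttr, the plasma partner of retinol-binding protein and also in the hepatocyte list, was at least 3418-fold lower, and the dehydrogenase gene Rdh7 at least 939.4-fold lower. The 2 that rose were Rdh11, a retinal reductase, at 0.73, 0.82 and 0.79 in control-siRNA cells against -1.38, -0.76 and -1.16 in quiescent cells (log2 difference 1.88, adjusted p = 1.08e-05), and Lpl, the lipoprotein lipase, with a difference of 0.76 (adjusted p = 0.00323).

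Of 9 retinoic acid binding proteins and receptors 7 were measured, of which 4 were called lower and 1 higher, so that 5 of 7 were called where 68.1% of all genes were. Rxrg passed the filter through the quiescent arrays alone. Rarb, a retinoic acid receptor whose own gene responds to the acid, measured -2.89, -2.94 and -2.83 in Cav1-siRNA cells, -2.67, -2.74 and -2.92 in control-siRNA cells and 1.11, 1.89 and 1.17 in quiescent cells, a difference of -4.16 between control-siRNA and quiescent cells (adjusted p = 2.2e-07). Rxrg was at least 66.0-fold lower, Rxra differed by -1.44 and Rxrb by -0.44. Rarg was higher by 0.85 (adjusted p = 0.0139). The receptor gene Rara (-0.05) and the binding protein gene Fabp5 (-0.23) were not called. Between Cav1 siRNA and control siRNA none of the 27 and none of the 7 genes was called, with medians of -0.07 and -0.12.

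**Figure D4:**
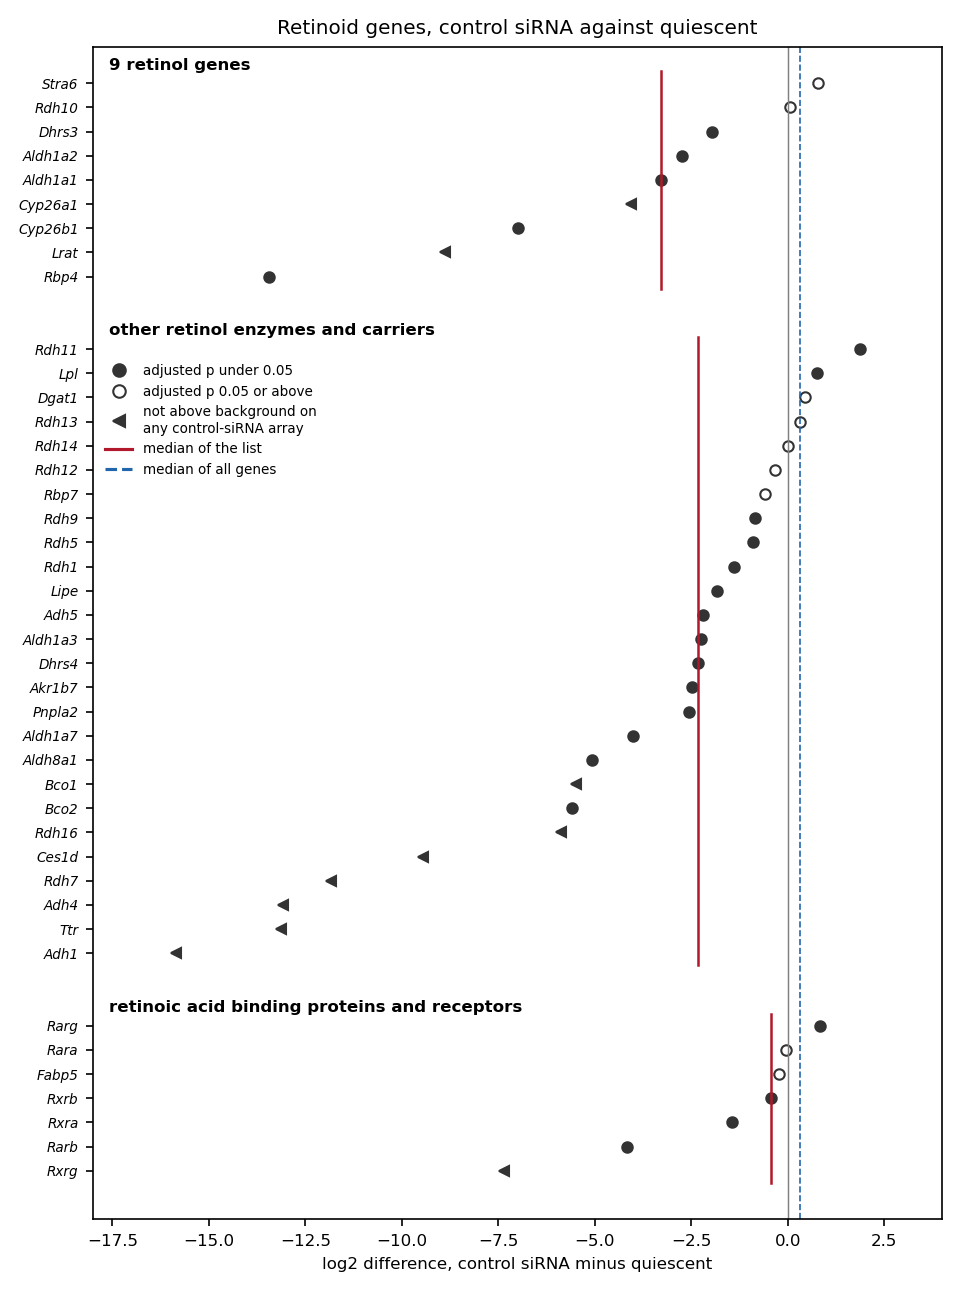
Log2 difference between control-siRNA and quiescent cells (x axis) for the 9 retinol genes, 26 of the 27 other retinol enzymes and carriers measured and 7 binding proteins and receptors (rows), filled where called, with triangles for genes below background on every control-siRNA array, whose fitted value is no bound. The list medians are -3.29, -2.33 and -0.44, left of the median of all genes at 0.32. Each list holds genes that passed the filter on low signals through the quiescent arrays alone.

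The genes whose log2 signal over the 9 arrays was most like that of each retinol gene are given by Pearson's r as a description. These correlations rest mainly on the gap between 3 quiescent and 6 cultured arrays. They were Tie1 for Lrat (0.9998), Etnppl for Rbp4 (0.9989), Tlr2 for Dhrs3 (0.997), Gamt for Aldh1a1 (0.9993), Lypla1 for Cyp26a1 (0.9957) and Als2cl for Cyp26b1 (0.9991). Tie1 and Lrat were each above background on only 3 of the 9 arrays, so their value also rests on signals at background. Aldh1a2 was most like a transcript with no gene name, then Tbc1d10c (0.9947). Stra6 and Rdh10, which lack that gap, had lower values, with Smad7 (0.9804) the nearest named gene to Stra6 and Setd1b (0.9588) the nearest to Rdh10.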

How the data were processed

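Scans were read with version 10.7.1.1 of Agilent Feature Extraction, as the file headers and the notes of the submitters give it. Per the file headers, the deposited signals are spot intensity on a linear scale, background-subtracted and detrended but unscaled between arrays. Mean and background intensity and the spot flags were also read from the deposited files. The authors' value table, which gives that intensity as a mean over spots, was an alternative.

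Here log2 of the processed signal minus the array's 75th percentile over non-control spots was averaged over spots of a probe, without outlier spots. The filter on low signals used the share of a probe's spots flagged well above background. It asked for a share of 0.5 or more on all of the 3 arrays of at least 1 group. This kept 36885 probes, and the 36817 that also had a value on every array without outlier spots were tested. The kept probe with the highest mean stood for its gene. Groups were compared with limma 3.58.1 (R version 4.3.3; lmFit, then eBayes, on all 9 arrays, two-sided), with Benjamini-Hochberg adjustment and calls at an adjusted p under 0.05. The code of the fit was also run on simulated data. These had the same spread in every group and no slides, so the run does not bear on those features here. The number of arrays limits precision, and no spot was saturated. RefSeq names and promoters are of GRCm38.p6. Names matched by accession for 32994 probes.

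Members, lists and tests were chosen with earlier results of these data known. Named beside the 9 genes were, of the other retinoid genes, the 4 largest rises and 4 largest falls among called genes that no array of either group had below background, of which 3 rises existed, the 4 largest bounds, and the genes most like each member. Other retinoid genes named outside this rule (Aldh1a3, Aldh1a7, Rdh16, Bco1, Ces1d, Rxra, Rxrb, Rxrg, Rara and Fabp5) were chosen after their values were seen. A gene that the rule names is not reported here, though list counts and medians include it. Replicate numbers did not pair samples. Alternatives were normexp background correction, median scaling, other filters, probe means, the authors' table, array weights, fits on 2 groups, the slide, the replicate block and leaving out each array.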

Additional observations from a re-analysis of the deposited data

How the results depend on the processing

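The 7 falls against quiescent cells kept their direction and their call in every alternative that gave a value, in both cultured groups. The filter on all 9 arrays drops 4 of the 7 genes, so it counted 3 lower in each cultured group (4 when every probe is counted). Stra6 decided the other counts. For control siRNA 1 gene was called higher with normexp and quantile normalization, median scaling, the filter on all 9 arrays and array weights, also over every probe with median scaling and that filter, and leaving out 1 array gave 0 to 1. For Cav1 siRNA 0 were called higher after normexp with the 75th percentile and with the slide as a block, over every probe too. Normexp with an offset of 50 lifts dim signals and so shrinks the falls of dim genes.

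Of all genes, 7615 were called between control-siRNA and quiescent cells within slide 1, against 16328, and 10141 between Cav1-siRNA and quiescent cells with the slide as a block, against 16210. Between the siRNAs, against 0 called, there were 7 and 5 after normexp with the 75th percentile and with quantile normalization, 6 with the filter on all 9 arrays, 656 with array weights, 5 with only the 2 groups and 0 to 2 without 1 array, none of them a retinol gene. The share of calls that were higher in control-siRNA than in quiescent cells was 61.8%, but 46.2% after normexp with the 75th percentile and 47% with no filter, where the median of all genes was -0.13 and -0.21. For Cav1 siRNA it was 59.8%, and 45.1% and 46.2% in the same settings.

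Same-numbered samples of the 2 siRNA groups correlated at -0.11, -0.04 and 0.17 in their deviations. With the replicate block 15837 genes were called between control-siRNA and quiescent cells, and no call of a retinol gene changed. Signal near background limits Lrat, Rbp4, Aldh1a2 and Cyp26a1 in culture, and Stra6 in quiescent cells.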

Other observations

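Markers of cell types beyond those described above also differed between the groups. Of 7 measured markers of mesothelial cells and portal fibroblasts, all were higher in both cultured groups than in quiescent cells, with a median difference of 4.43 for Cav1 siRNA and 4.93 for control siRNA on the log2 scale. Of all genes 40.4% were called higher for Cav1 siRNA and 42.1% for control siRNA. Of 4 measured cholangiocyte markers, 2 (Sox9 and Spp1) were higher and 1 (Krt19) lower in each cultured group. Spp1 is also among the markers of activated stellate cells. Of all genes 67.6% were called either way for Cav1 siRNA and 68.1% for control siRNA. Between Cav1 siRNA and control siRNA no gene of either list was called.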
